A study of Mus musculus with 6 samples.

Results

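Chemokine ligands are small secreted proteins that direct the movement of leukocytes. The genes described here are Cxcl1, Cxcl2, Cxcl5, Cxcl10, Cxcl12, Cx3cl1, Ccl2 and Ccl7, which were taken by symbol and matched by Ensembl identifier. All 8 were found among the 22246 genes of the expression table. They were chosen by their FPKM values in this same contrast, which were already known, so their levels and differences are given as a description, without a test. RNA was sequenced for 6 libraries of HL-1, a mouse cell line of atrial muscle origin. The labels give the tissue as heart and the strain as C57BL/6 for every sample. One group of 3 libraries carries the label control shRNA and the other group of 3 carries the label shRNA-Smyd4. A short hairpin RNA (shRNA) is processed into a small RNA that directs the breakdown of a matching mRNA, here that of the SET and MYND domain gene Smyd4. All samples come from 1 line, and whether the replicates were grown as separate cultures is not in the labels. P-values here weigh differences against the scatter among the 6 libraries, and this scatter may be purely technical.

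Chemokines are sorted by the spacing of their conserved cysteines into CXC, CC and CX3C classes, and they act through G protein-coupled receptors on the target cell. Cxcl1, Cxcl2 and Cxcl5 attract neutrophils through the receptor Cxcr2. Ccl2 and Ccl7 attract monocytes, mainly through Ccr2. Cxcl10 is induced by interferon and attracts T cells through Cxcr3, Cxcl12 is a homeostatic ligand of Cxcr4 and Ackr3, and Cx3cl1 (fractalkine) is made as a membrane protein that can be shed. Many inflammatory chemokine genes are switched on by the transcription factor NF-kB, and their mRNAs are short-lived because of AU-rich elements in the 3' untranslated region.

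Levels are given as FPKM, a fragment number corrected for gene length and library depth. The libraries held between 21983105 and 27935673 reads, as estimated from the deposited values. Control values of Smyd4 itself were 12.5, 12.8 and 13.5 FPKM, beside 12.6, 12.3 and 11.9 FPKM in the libraries labelled Smyd4 shRNA (limma, adjusted p = 0.173). The ranges overlapped, so the mRNA does not bear out the label, and the term labelled libraries is used for this group. Of 11 listed cardiomyocyte markers with a row in the table, 7 stayed under 1 FPKM in all 6 libraries, among them Myh6, Myl7 and Actc1. Of the 4 that were tested, 3 were called higher in the labelled libraries, as were 25.1% of all tested genes, and 1 did not pass. The marker that did not pass was the most abundant of the 4, with means of 145.7 FPKM in controls and 145.1 FPKM in the labelled libraries. The transcription factor gene Nkx2-5 rose from 3.57 to 7.68 FPKM (limma, adjusted p = 0.000215). The troponin gene Tnnt2 rose from 7.11 to 11.7 FPKM (limma, adjusted p = 6.22e-06) and Gata4 from 8.09 to 8.88 FPKM (limma, adjusted p = 0.0314). The call of Gata4 was lost without control replicate 2 or 3 or any 1 labelled library (limma, adjusted p from 0.0531 to 0.101). Leukocyte markers were near 0: of 9 with a row, 7 stayed under 1 FPKM everywhere, including the pan-leukocyte gene Ptprc, and their summed level was 2.36 to 2.57 FPKM in controls and 2.48 to 5.72 FPKM in the labelled libraries. The highest of these sums came from labelled replicate 3, in which the macrophage gene Lyz2 had 3.74 FPKM. All 5 endothelial markers with a row stayed under 1 FPKM. Fibroblast markers summed to 239 to 246 FPKM in controls and 270.3 to 282 FPKM in the labelled libraries, and 3 of 8 (Thy1, Tcf21 and Postn) stayed under 1 FPKM. Single fibroblast markers went both ways. Col1a1 (37.6 to 69.3 FPKM) and Col1a2 (60.5 to 84.9 FPKM) rose, whereas Dcn fell from 26.3 to 1.72 FPKM (limma, adjusted p = 9.15e-08) and Pdgfra from 4.35 to 2.94 FPKM. The part of any such difference in the chemokine values was not tested.

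Promoter sequence was available for 5 of the 8 genes: Cxcl1, Cxcl2, Cxcl10, Cxcl12 and Cx3cl1. The 250 bases before the RefSeq start of the gene (GRCm38.p6) are shown for 3 CXC genes because they carry like NF-kB motifs at very different mRNA levels. Capitals mark matches to the NF-kB (kappaB) motif, read on either strand as GGGA and TTCC with any 2 bases between. In Cxcl10 they also mark the interferon-stimulated response element, read on either strand as GAAA and GAAA with any 2 bases between. The windows are chr5:90890995-90891244 on the plus strand for Cxcl1, chr5:90903649-90903898 on the plus strand for Cxcl2 and chr5:92348890-92349139 on the minus strand for Cxcl10.
Cxcl1: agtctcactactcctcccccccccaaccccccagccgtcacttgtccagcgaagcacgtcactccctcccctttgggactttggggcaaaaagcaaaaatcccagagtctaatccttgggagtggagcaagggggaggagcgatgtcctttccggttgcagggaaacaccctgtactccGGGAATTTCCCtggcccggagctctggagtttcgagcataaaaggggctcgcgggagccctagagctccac
Cxcl2: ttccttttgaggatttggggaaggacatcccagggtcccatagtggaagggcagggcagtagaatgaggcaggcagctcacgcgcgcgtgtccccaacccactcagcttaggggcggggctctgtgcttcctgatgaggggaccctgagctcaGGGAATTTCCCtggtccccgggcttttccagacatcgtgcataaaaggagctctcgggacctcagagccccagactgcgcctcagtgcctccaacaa
Cxcl10: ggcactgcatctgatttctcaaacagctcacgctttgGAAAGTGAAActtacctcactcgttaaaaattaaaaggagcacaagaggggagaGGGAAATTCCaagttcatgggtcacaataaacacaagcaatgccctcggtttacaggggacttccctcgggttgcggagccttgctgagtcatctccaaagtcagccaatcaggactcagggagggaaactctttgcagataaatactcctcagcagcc

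The kappaB motif with AT between its parts was found 71 bases before the start of Cxcl1 and 97 bases before that of Cxcl2. This exact form occurs on either strand in 0.0852% of 32851 mouse promoter windows of the same length. Because the neighbouring letters also match on the other strand, the motif with any 2 bases between was matched at 2 overlapping places in each of these genes. In Cxcl10 it was matched once, 159 bases before the start, and 1.21% of all windows hold it. Cxcl10 was also the 1 gene of the 5 with the interferon element, 213 bases before the start (2.98% of all windows), and with the AP-1 motif TGANTCA, 74 bases before the start (6.75%). None of the 5 windows held the C/EBP motif TTGCNNAA, which 9.56% of all windows hold, and those of Cxcl12 and Cx3cl1 held none of the motifs searched. A match describes the letters and does not show binding.

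Among the neutrophil attractants, Cxcl5 and Cxcl1 were abundant in control cells and low in the labelled libraries, whereas Cxcl2 was almost undetected in both. Cxcl5 (chromosome 5, 90759360 to 90761624 of GRCm38) had 320, 329 and 328 FPKM in controls, against 8.24, 8.28 and 8.66 FPKM in the labelled libraries. Its ratio of group means was 38.8, and pairing the extreme libraries gave ratios from 36.9 to 39.9. Cxcl1 (90891241 to 90893115) had 127, 126 and 126 FPKM in the controls and 2.69, 3.06 and 3.27 FPKM in the labelled libraries, a ratio of 42.1 (38.6 to 47.3). In both genes the ranges of the groups were far apart. Cxcl5 was counted with at least 334 reads and Cxcl1 with at least 127 reads in every library. In bulk RNA, fewer cells that make a transcript and less transcript per cell cannot be told apart.

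Both genes were among the most abundant transcripts of control cells. Cxcl5 ranked 129 of 22246 genes by mean FPKM in controls and 6088 in the labelled libraries, and Cxcl1 ranked 414 and 9162. They kept nearly the same proportion to each other. Controls had a ratio of Cxcl5 to Cxcl1 of 2.51, 2.60 and 2.59, and the labelled libraries had 3.06, 2.71 and 2.65, so the labelled values lay slightly higher with a wider spread (2.57 ± 0.0505 against 2.80 ± 0.222, SD, n = 3).

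Cxcl2 starts 10755 bases beyond the end of Cxcl1 on the same strand. It had 0.0606 FPKM in control replicate 1, which is 3 reads, and was at 0 in the other 5 libraries. At this depth a count of 0 allows up to 3 reads, which is 0.0555 to 0.0701 FPKM for a gene of this length, so no fold was computed. The mRNA of the ligand whose promoter shares the exact kappaB letters with Cxcl1 was thus at or under the limit of detection in both groups. Cxcl1 and Cxcl2 are related in sequence, and reads could be misassigned between them. The controls held 5611 to 6013 reads of Cxcl1 beside at most 3 of Cxcl2.

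The monocyte attractants Ccl2 and Ccl7 lie 8258 bases apart on chromosome 11. They stood at near equal levels in control cells, and Ccl2 was the lower of the pair in the labelled libraries. Ccl2 (82035571 to 82037453) had 202, 199.7 and 213 FPKM in the controls and 32.3, 31.4 and 31.6 FPKM in the labelled libraries, a ratio of 6.45 (6.19 to 6.79 between extreme libraries). Ccl7 (82045712 to 82047525) had 191, 198 and 204 FPKM and 81.4, 85.4 and 84.1 FPKM, a ratio of 2.37 (2.24 to 2.51). Neither gene's groups overlapped. Within a library the ratio of Ccl2 to Ccl7 was 1.04 ± 0.0249 in controls and 0.380 ± 0.0150 in the labelled libraries (SD, n = 3). Ccl7 still ranked 666 of 22246 genes by mean FPKM in the labelled libraries, against 235 in controls, while Ccl2 went from rank 228 to 1988.

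Cx3cl1 and Cxcl12 were expressed at a lower level in control cells than Cxcl5, Cxcl1, Ccl2 and Ccl7. Both differed less than Cxcl5, Cxcl1 and Ccl2, but Cx3cl1 differed more than Ccl7. Cx3cl1 (chromosome 8, 94772009 to 94782423) had 9.11, 9.62 and 9.41 FPKM in the controls and 3.52, 3.21 and 3.22 FPKM in the labelled libraries, a ratio of 2.83 (2.59 to 2.99). Cxcl12 (chromosome 6, 117168535 to 117181367) had 1.91, 1.86 and 2.02 FPKM in the controls and 0.842, 0.857 and 0.945 FPKM in the labelled libraries, a ratio of 2.19 (1.97 to 2.40). The groups were apart in both genes, and at least 160 reads per library lay behind each value of Cxcl12. Cxcl12 passed the filter of a mean of 1 FPKM only through its control values.

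Cxcl10 (chromosome 5, 92346638 to 92348889) was barely detected. Its levels were 0.148, 0.169 and 0.210 FPKM in controls and 0.0510, 0.0176 and 0.0858 FPKM in the labelled libraries, from 8, 9 and 12 reads and from 3, 1 and 4 reads. The control values were all higher, but with so few reads the size of the difference is poorly determined. Cxcl10 overlaps Art3 on the opposite strand, which had a mean of 0.0859 FPKM, and no source used here says whether counting was strand-specific. No other member overlapped a gene of the expression table.

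**Figure D1:**
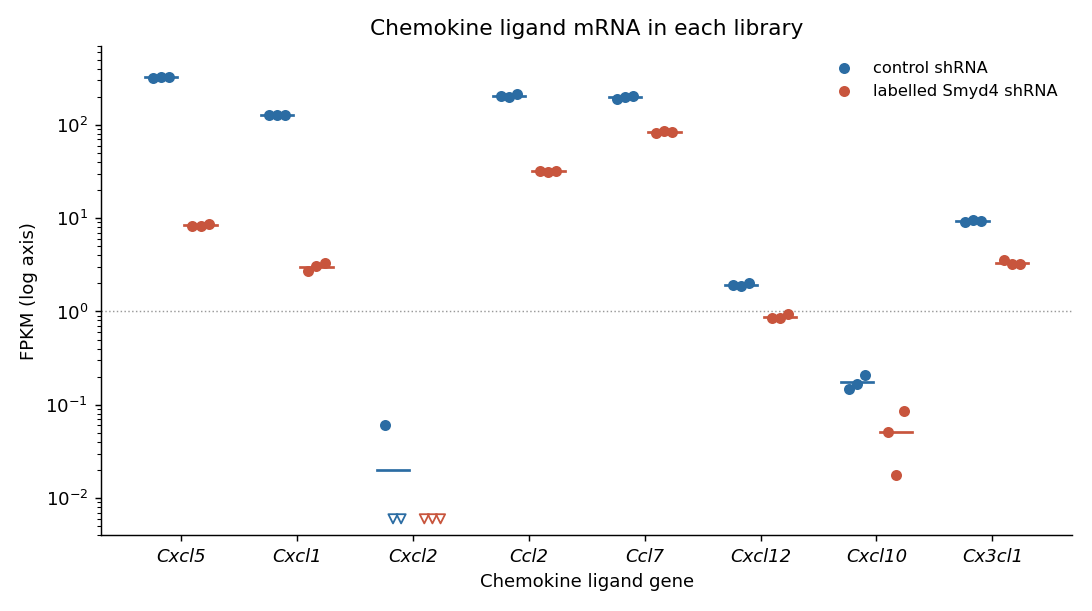
FPKM (log axis) of the 8 chemokine ligand genes in each of the 6 libraries, with 1 point per library and a line at the group mean; open triangles mark libraries at 0 and the dotted line marks 1 FPKM. The groups are apart for every gene except Cxcl2, with the widest gaps in Cxcl5 and Cxcl1. Cxcl10 rests on at most 12 reads per library. Among tested genes, ranges are apart and lower in 27.6% and apart in either direction in 57.8%.

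Of the 8 genes, 6 passed the filter on low values and 2 (Cxcl2 and Cxcl10) did not. Cxcl12 passed only through its control values, which favours a lower level in the labelled libraries. At an adjusted p of 0.05, limma called 23.3% of the 11325 genes tested lower and 48.3% in either direction. Calls of the 6 members are not counted, because these genes were chosen on the same values. The group ranges did not overlap for these 6, which holds in the lower direction for 27.6% of tested genes and in either direction for 57.8%. All 6 were at least 2-fold lower by the ratio of mean FPKM, as were 2.77% of tested genes. In addition, 3 were at least 5-fold lower (0.724% of tested genes) and 2 at least 30-fold lower (0.132%). Because the contrast was known when the genes were chosen, nothing is read from these counts. The median difference of the 6 was -2.02 on the log2(FPKM + 0.5) scale, and that of all tested genes was 0.02. On recovered reads, edgeR called 49.2% of the genes it tested and DESeq2 34.6%, in either direction. The authors' deposited table of called genes was made from the same libraries. It lists the same 6, each as lower, and 13.6% of all genes are listed there as lower (25.2% in either direction).

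The order of the levels changed between the groups. In controls it ran Cxcl5, Ccl2, Ccl7, Cxcl1, Cx3cl1, Cxcl12, Cxcl10 and Cxcl2, and the ranges of Ccl2 and Ccl7 overlapped. In the labelled libraries it ran Ccl7, Ccl2, Cxcl5, Cx3cl1, Cxcl1, Cxcl12, Cxcl10 and Cxcl2, and the ranges of Cx3cl1 and Cxcl1 overlapped. The other neighbours in each order did not overlap. Summed over the 8 genes, the level was 866 ± 15.9 FPKM in controls and 131 ± 1.79 FPKM in the labelled libraries (SD, n = 3), a ratio of 6.61. The 3 neutrophil attractants made up 52.2% ± 0.671 of this sum in controls and 8.70% ± 0.303 in the labelled libraries. Ccl7 alone went from 22.8% ± 0.344 to 63.8% ± 0.757 of the sum, although its own level was lower. The share of Ccl2 was 23.6% ± 0.520 and 24.2% ± 0.686, so its level was lower in about the same proportion as the sum.

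**Figure D2:**
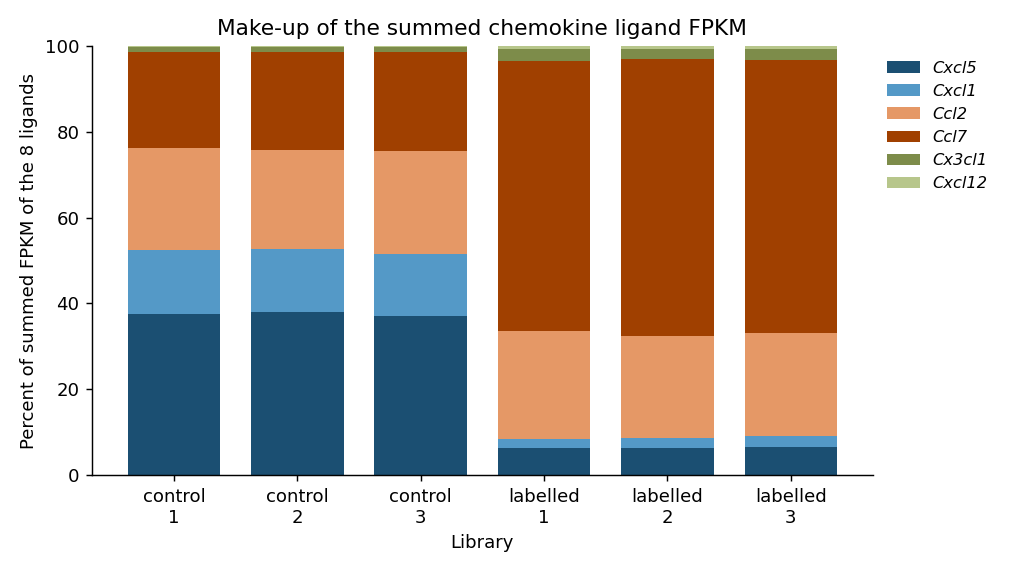
Stacked bars give the percent of the summed FPKM of the 8 ligand genes that each gene contributes in each library; Cxcl2 and Cxcl10 add too little to be drawn. Cxcl5 and Cxcl1 fill the lower part of the control bars, and Ccl7 takes most of each labelled bar.

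The 3' untranslated regions of the members, which the choice of genes did not use, were searched for the AU-rich pentamer ATTTA in the longest protein-coding transcript of each gene (GENCODE M21). Cxcl1 and Cxcl2 are shown because they had the densest runs. Each line gives the 30 bases with the most matches, which are in capitals. The stretch of Cxcl1 is chr5:90892602-90892631 and that of Cxcl2 is chr5:90905327-90905356, both on the plus strand of GRCm38.
Cxcl1 AU-rich stretch: gagggtcctATTTATTTAtgtATTTATTTA
Cxcl2 AU-rich stretch: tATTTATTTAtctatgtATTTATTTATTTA

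Cxcl1 held 7 pentamers in 592 bases, 11.8 per kilobase, a density reached by 0.630% of tested genes. Cxcl2 held 11 in 1494 bases, or 7.36 per kilobase (2.26% of tested genes). Next came Ccl7 with 4.60 per kilobase, Cxcl5 with 4.50, Ccl2 with 3.64 and Cxcl10 with 3.01. The densities of Ccl7 and Ccl2 rest on short regions, with 2 pentamers in 435 bases and 1 in 275 bases. As many pentamers were held by 51.6% and 70.5% of tested genes. The median over 10263 tested genes was 1.37 per kilobase. Cxcl12 and Cx3cl1 lay below it, with 0.771 and 0.534 per kilobase. Whether this element bears on the differences between the groups was not tested.

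The gene with the nearest profile to each tested member was sought by the root mean square difference, over the 6 libraries, of log2(FPKM + 0.5) profiles centred on the control mean. For both Cxcl1 and Cxcl5 it was the peptide hormone gene Cck, at distances of 0.24 and 0.23. Those chemokine genes were closer to each other (0.06) than to it. The nearest genes to the others were Sox11 for Ccl2 (0.05), C1s1 for Ccl7 (0.04), S1pr1 for Cx3cl1 (0.04) and Tmem123 for Cxcl12 (0.02). With 2 groups such a distance mostly compares the size of the difference between them.

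Of 30 other chemokine ligands listed, 20 had a row and 6 were tested. Ccl3 and Ccl5 passed the filter only through their control values, which favours a lower call. The 4 that reached a mean of 1 FPKM in both groups (Cxcl15, Ccl8, Ppbp and Ccl9) fell, as did 23.3% of all tested genes. Their median log2 difference was -1.12, against 0.02 over all tested genes. The neutrophil and macrophage attractant Ccl3 had 2.95, 3.25 and 3.86 FPKM in controls and 0, 0.0517 and 0.126 FPKM in the labelled libraries, which held at most 2 reads. Cxcl15, a CXC ligand gene between Cxcl5 and Cxcl1, fell from 5.36 ± 0.355 to 1.67 ± 0.316 FPKM (limma, adjusted p = 1.60e-05). Ccl8, a CC ligand gene beyond Ccl7, fell from 8.86 ± 0.616 to 3.36 ± 0.987 FPKM (limma, adjusted p = 0.000385).

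The clusters around the members held genes at very different levels. On chromosome 5, Ppbp, which encodes a platelet chemokine and lies next to Cxcl5, fell from 3.40 ± 0.406 to 1.56 ± 0.291 FPKM (limma, adjusted p = 0.000404). The neighbouring platelet factor gene Pf4 had at most 4 reads in any library. Cxcl3, another neutrophil attractant, had 16, 8 and 17 reads in the controls and 0 in each labelled library. On chromosome 11, Ccl11 beside Ccl7 had 15, 15 and 16 reads in the controls and 14, 6 and 1 in the labelled libraries, and Ccl12 had at most 2. Cxcl9, next to Cxcl10, was detected in 1 library with 2 reads. Ccl9, from the second CC cluster of chromosome 11, fell from 4.25 ± 0.199 to 2.26 ± 0.107 FPKM (limma, adjusted p = 1.86e-05). Ccl5 in the same cluster had 1.52 ± 0.488 and 0.621 ± 0.0729 FPKM.

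Receptors for most of these ligands were not detectable at a usable level. Of 23 chemokine receptor genes, 18 had a row, 12 stayed under 0.1 FPKM in all 6 libraries and 2 were tested. Both fell, beside 23.3% of all tested genes called lower. Ackr3, an atypical receptor that takes up Cxcl12, had 12.9, 12.2 and 13.3 FPKM in the controls and 3.97, 3.40 and 3.64 FPKM in the labelled libraries (log2 difference -1.67, standard error 0.06, limma adjusted p = 3.20e-07). Cxcr4, the signalling receptor of Cxcl12, fell from 2.34 ± 0.180 to 1.23 ± 0.142 FPKM (limma, adjusted p = 0.000364). The ligand and both of its receptors were therefore each lower in the labelled libraries. Cxcr2, the receptor of the neutrophil attractants, was at 0 in every control library and at most 0.0475 FPKM in the labelled ones. Ccr2 reached at most 0.0302 FPKM and Cx3cr1 at most 0.0106 FPKM in any library.

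**Figure D3:**
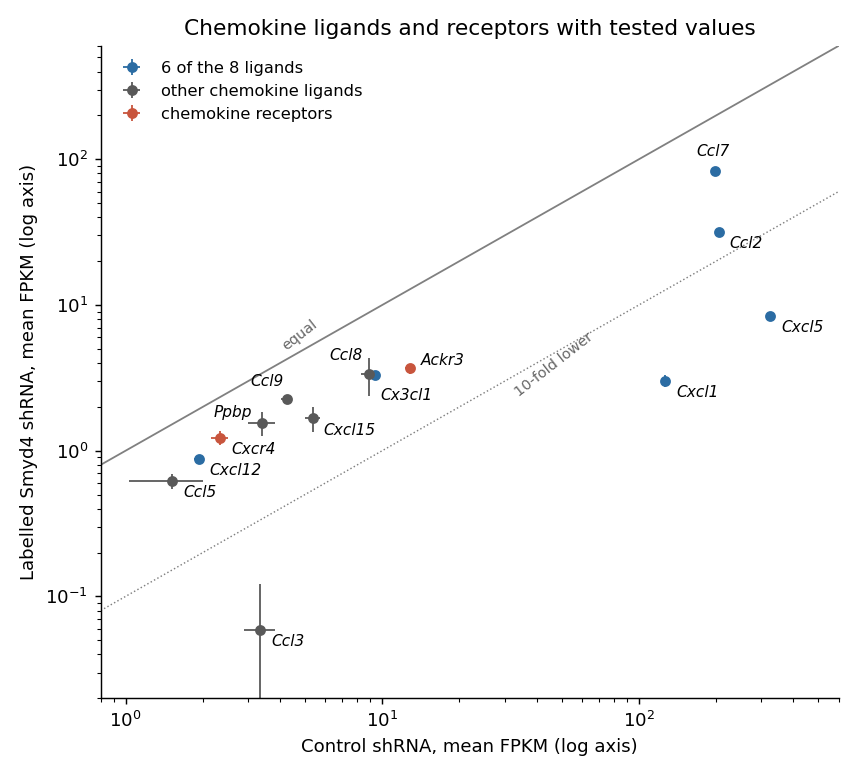
Mean FPKM in the control libraries (x, log axis) and in the labelled libraries (y, log axis) for the 6 tested members, 6 other ligands and 2 receptors; bars are SD over 3 libraries, and a bar that would pass 0 runs to the edge. Every gene lies below the line of equal levels, and Cxcl5, Cxcl1 and Ccl3 lie below the line of a 10-fold lower level. The 6 members were chosen on this contrast. Cxcl12, Ccl3 and Ccl5 passed the filter only through their control values, which favours a place below the line.

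Cytokines that induce chemokine genes, their receptors and Toll-like receptors, which are counted in the same list, were mostly lower. Of 29 listed, 26 had a row and 19 were tested. Of these, 14 fell, 3 rose and 2 did not pass, beside 23.3% of all tested genes called lower and 25.1% called higher. Il6 and Il1rap passed the filter only through their control values. Without them 12 of 17 fell, and the median log2 difference was -0.23 (-0.28 with them). Il33, an alarmin of the interleukin-1 family, had 97.1, 98.6 and 99.3 FPKM in the controls and 20.8, 20.0 and 22.1 FPKM in the labelled libraries (limma, adjusted p = 7.18e-09). Il6 fell from 3.18 ± 0.163 to 0.0387 ± 0.0163 FPKM, where at most 3 reads per library remained, and the oncostatin M receptor gene Osmr from 8.06 ± 0.103 to 3.22 ± 0.147 FPKM (limma, adjusted p = 4.32e-07). The receptor genes Il1r1 (7.78 to 9.46 FPKM), Il6ra (4.11 to 4.96 FPKM) and Il17rd (1.47 to 2.50 FPKM) rose (limma, adjusted p from 0.00034 to 0.00173). The classical inducer genes Tnf, Il1a and Il1b had means of at most 0.897 FPKM and were not tested. Tnf had 34, 26 and 32 reads in the controls and 4, 8 and 3 in the labelled libraries. Il1a had 34, 39 and 57 reads in the controls and 0, 0 and 1 in the labelled libraries. Il1b had at most 5 reads in any library, and its ranges overlapped.

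Transcription factors and signalling proteins that act on chemokine genes fell or did not pass. Of 25 tested, 16 fell, 0 rose and 9 did not pass, where 23.3% of all tested genes were called lower and 25.1% higher. The median log2 difference was -0.37. The list is not limited to activators, and genes of NF-kB inhibitors were among the 16 that fell. At an unadjusted p under 0.05, 1 of these 25 (Chuk) was higher in limma, and edgeR and DESeq2 on recovered reads each called 0 higher at an adjusted p of 0.05. Cebpd, which binds the C/EBP motif, fell from 30.4 ± 1.39 to 3.48 ± 0.0674 FPKM (limma, adjusted p = 2.26e-09). Nfkbiz, a nuclear co-activator of NF-kB at a subset of its targets, fell from 10.6 ± 0.322 to 2.18 ± 0.281 FPKM (limma, adjusted p = 3.94e-07). The NF-kB subunit gene Relb fell from 8.39 ± 0.645 to 1.77 ± 0.0447 FPKM (limma, adjusted p = 2.23e-07). The interferon signalling genes Stat2, Irf3 and Irf9 were among those that did not pass, as were the kinase genes Chuk, Ikbkb and Ikbkg.

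The list of regulators of chemokine mRNA decay is not limited to proteins that bind AU-rich elements, or to 1 direction of effect. All 12 genes listed were tested. Of these, 5 fell, 1 rose and 6 did not pass, against 23.3% called lower and 25.1% called higher over all tested genes. The median log2 difference was -0.17. Zc3h12a (regnase-1), a ribonuclease that degrades inflammatory mRNAs, had 17.4, 17.4 and 17.3 FPKM in the controls and 4.45, 4.61 and 4.51 FPKM in the labelled libraries (limma, adjusted p = 8.89e-09). Zfp36l1, a decay factor that binds ATTTA elements, fell from 5.08 ± 0.292 to 3.16 ± 0.468 FPKM (limma, adjusted p = 0.00103), and the interleukin-17 adaptor gene Traf3ip2 from 2.67 ± 0.221 to 1.95 ± 0.235 FPKM (limma, adjusted p = 0.0102). Zfp36l2, of the same family as Zfp36l1, rose from 102 ± 0.797 to 108 ± 1.09 FPKM (limma, adjusted p = 0.0139). Zfp36, which encodes tristetraprolin, stood at 3.62 and 3.36 FPKM and did not pass.

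Proteases that cut or shed chemokines were tested for 6 of 17 genes, of which 2 fell, 2 rose and 2 did not pass. Among all tested genes 23.3% were called lower and 25.1% higher. The median log2 difference of the 6 was -0.02. The filter left out 7 others with a row. None of these had its labelled values apart and higher, and some had them apart and lower. Among tested genes, ranges were apart and lower in 27.6% and apart in either direction in 57.8%. Of the 7 left out, Mmp13 had 73, 104 and 98 reads in the controls and 1, 2 and 3 in the labelled libraries. Mmp3 had 61, 49 and 54 reads in the controls and 0, 0 and 1 in the labelled libraries. Mmp2, a gelatinase known to trim Ccl7 and Cxcl12, fell from 45.3 ± 0.579 to 4.05 ± 0.205 FPKM (limma, adjusted p = 9.56e-10), and Adam8 from 3.27 ± 0.264 to 1.82 ± 0.174 FPKM (limma, adjusted p = 0.000252). Mmp14 (64.4 to 75.1 FPKM) and the aminopeptidase gene Anpep (19.7 to 24.3 FPKM) rose (limma, adjusted p = 0.00119 and 0.000243). The Cx3cl1 sheddase genes Adam10 (36.3 and 36.2 FPKM) and Adam17 (16.9 and 16.4 FPKM) did not pass.

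Heparan sulfate holds chemokines at cell surfaces, and the genes of its core proteins and enzymes moved in both directions. Of 21 listed, 16 were tested, of which 8 fell, 7 rose and 1 did not pass, with 23.3% of all tested genes called lower and 25.1% higher. The median log2 difference was -0.08. Hs3st1 passed the filter only through its control values, and without it 7 of 15 fell, with a median of -0.01. Hs3st1, a 3-O-sulfotransferase gene, stood at 6.06 ± 0.264 FPKM in controls and 0.164 ± 0.0291 FPKM in the labelled libraries. The endosulfatase gene Sulf1 fell from 9.88 ± 0.303 to 4.58 ± 0.199 FPKM and the syndecan gene Sdc4 from 98.6 ± 2.22 to 73.7 ± 0.591 FPKM. The 6-O-sulfotransferase gene Hs6st1 rose from 11.6 ± 0.838 to 23.2 ± 0.263 FPKM (limma, adjusted p = 2.31e-06), the epimerase gene Glce from 11.6 ± 0.0738 to 14.9 ± 0.331 FPKM and the glypican gene Gpc6 from 2.29 ± 0.0164 to 3.03 ± 0.0789 FPKM. Over the 7 lists together, 53 of 86 tested genes fell, 13 rose and 20 did not pass. Of the 53, 5 passed the filter only through their control values. Among all tested genes, 23.3% were called lower and 25.1% higher. The lists were chosen with earlier results of these data known, so nothing is read from these counts.

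**Figure D4:**
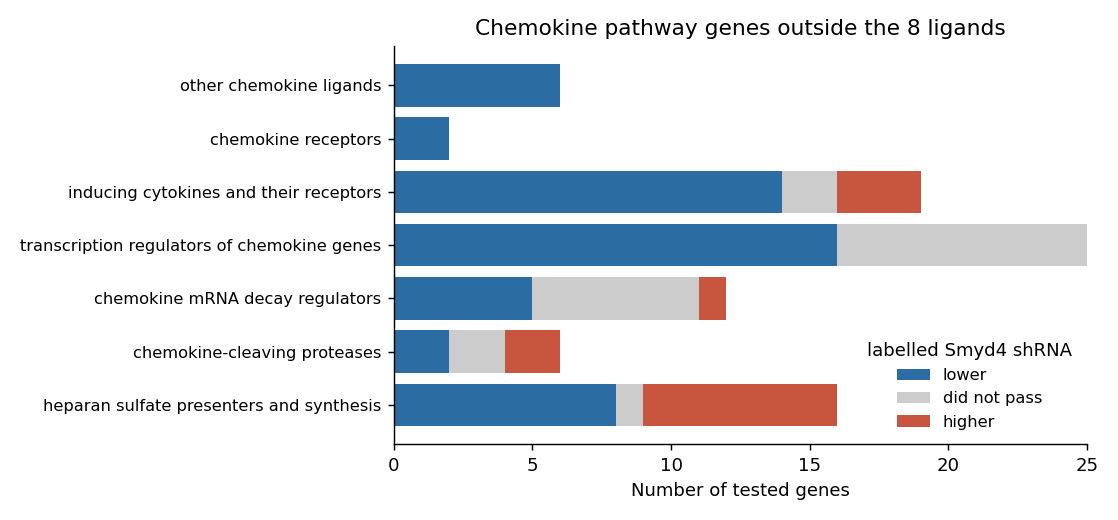
Bars count the tested genes of each chemokine pathway list outside the 8 ligands that were called lower, did not pass or were called higher in the labelled libraries (limma, adjusted p of 0.05). Ligands and receptors hold lower calls only, and the heparan sulfate list is nearly evenly divided. Of the ligands, Ccl3 and Ccl5 passed the filter only through their control values. Of all tested genes, 23.3% were called lower and 25.1% higher.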

How the data were processed

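RNA-seq was made from 3 control and 3 labelled libraries of mouse HL-1 cells. TopHat2 2.0.9 and Bowtie2 2.0.6 are named with the build GRCm38, per the submitters' processing notes. No source used here names the counter or its use of strand. The authors deposited FPKM for 22246 genes and a table of 5616 called genes with normalized signal values, log2 fold changes and adjusted p-values, of which the largest was 0.0499. Symbols were matched for 22134 genes.

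FPKM + 0.5 was log2-transformed, genes whose mean reached 1 FPKM were kept, and limma 3.58.1 (R 4.3.3, empirical Bayes with a trend) was fitted to the 11325 genes left, without a replicate block. P-values were adjusted by Benjamini-Hochberg over all of them at 0.05, and ± is SD over 3 libraries. FPKM times gene length stood in a constant ratio to the deposited signal values, from which reads per gene were recovered: 100% of FPKM values came out whole within 0.01 reads. Lengths of 5616 genes came from the authors' table, 13309 from an exact match to GENCODE M21, 3213 from the nearest fitting multiple and 108 from the smallest fitting value, so library totals are estimates. Counting covers sampling error only. edgeR 4.0.16 (quasi-likelihood) and DESeq2 1.42.0 on the recovered reads were alternatives chosen after seeing the data. The fit was tested on simulated data. Promoter windows and motifs came from RefSeq, and the 3' untranslated regions from GENCODE M21.

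The 8 genes and all lists were chosen with earlier results of these data known. In each list, up to 3 called genes in each direction were named by largest difference, and for each tested member the gene with the nearest profile, with the neighbouring ligands. Other named genes, among them Gata4, Lyz2, Tnf, Cxcr2, Stat2, Chuk, Zfp36 and Adam10, were chosen after their values were seen.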

Additional observations from a re-analysis of the deposited data

How the results depend on the processing

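The median difference of the tested members, -2.02 on the log2(FPKM + 0.5) scale, was -2.08 with a pseudocount of 0.1, -1.96 with 1, -1.31 without a filter (8 members) and -2.67 at a mean of at least 5 FPKM (5 members). With a single library left out it ranged from -2.05 to -2.01. Cxcl12 moved from -0.82 to -0.64 with a pseudocount of 1. The 53 lower calls in the pathway lists became 34 at a mean of at least 5 FPKM, where fewer genes were tested. With the replicate block, 5141 genes were called in all in place of 5474, and 66 in the lists, as without it. The replicate numbers did not pair the libraries: same-number correlations of deviations were -0.03, 0.02 and 0.01. With a single library left out, between 4536 and 4993 genes were called in all, and between 61 and 67 in the lists. On recovered reads, edgeR called 6804 genes, of which 5284 were shared with limma, and DESeq2 5606, of which 4671 were shared. No tested member's difference changed sign in the limma alternatives. These genes were chosen on this contrast and their group ranges were apart, so nothing is read from the unchanged sign. Of 48 other named and tested genes, 5 changed their call under at least 1 alternative. Gata4 lost its call without a filter, with the replicate block (limma, adjusted p = 0.0583), in DESeq2 and without any of 5 single libraries. Chuk gained one under quantile normalization, Ikbkg in edgeR, and Stat2 and Irf3 each without 1 labelled library (1 and 3). Differences near 0 changed sign for Ikbkb (0.0420 under quantile normalization) and Adam10 (from -0.0310 to 0.0213 with a single library left out). Depth limits Cxcl2, Cxcl10 and most receptors, which were counted with few reads.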
